A study of Mus musculus with 12 samples.

Results

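The genes described here are 10 interferon-inducible mouse genes of the Ifi27 family (Ifi27, Ifi27l2a and Ifi27l2b), the Ifitm family (Ifitm1, Ifitm2 and Ifitm3) and a group of factors that restrict viruses or intracellular microbes (Bst2, Apobec3, Sp110 and Isg20). They were chosen by symbol, with earlier results of these data known, from the 40551 genes counted in each of 12 total RNA-seq libraries of mouse liver, and all 10 were found. Each of 4 genotypes had 3 livers: wild type (WT), Mcl1Δhep, Sting1-/- and Mcl1Δhep Sting1-/-. In Mcl1Δhep mice, Alb-Cre, a recombinase under the albumin promoter, deletes floxed Mcl1 in hepatocytes. MCL1 is an antiapoptotic member of the BCL2 family, and its loss in hepatocytes leads to chronic liver injury. Sting1-/- mice lack STING, the adaptor of the cGAS pathway of cytosolic DNA sensing, in all cells, and the cross of both lines gave the Mcl1Δhep Sting1-/- mice. WT and Mcl1Δhep livers of the transcriptome comparison came from mice aged 2 months. Mice of the WT, Mcl1Δhep and Mcl1Δhep Sting1-/- genotypes were in general examined when 2 and 12 months old, and which age the Mcl1Δhep Sting1-/- libraries had, and the age of the Sting1-/- mice, are not given in the sources used here. Both sexes were used, and the sex of each liver is not given in the sources used here.

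Type I interferon binds its receptor and raises the transcription of many genes whose products block viral entry, replication, assembly or release. Many of these genes carry an interferon-stimulated response element (ISRE) near their start site, whereas interferon gamma acts through the gamma-activated site (GAS). In liver, these genes are read out from hepatocytes as well as from Kupffer cells, infiltrating monocytes and lymphocytes. In bulk tissue, a change in the number of cells of one type and a change in RNA per cell cannot be told apart.

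All 10 genes passed the filter on low counts. Libraries held 28826367 to 45266387 counts on genes. Levels are given as CPM, counts brought to a common library total with edgeR's trimmed mean of M-values (TMM) factors, differences as log2 fold changes with their standard error (SE), and adjusted p is the Benjamini-Hochberg value of edgeR's quasi-likelihood test over 15070 tested genes, called when under 0.05. Mcl1 had 90.2, 102 and 104 CPM in WT livers and 27.9, 34.0 and 25.0 CPM in Mcl1Δhep livers (log2 fold change −1.77, adjusted p = 0.000605). Sting1 had 2.53, 2.43 and 2.11 CPM in WT livers and 1.16, 1.73 and 2.70 CPM in the livers labelled Sting1-/- (log2 fold change −0.33, adjusted p = 0.998). It had 4.59, 5.997 and 3.67 CPM in Mcl1Δhep livers and 1.90, 2.53 and 2.33 CPM in the livers labelled Mcl1Δhep Sting1-/-, which were all lower (log2 fold change −1.05, adjusted p = 0.134). Neither difference passed the threshold and it is not known here whether the counted exons lie in the disrupted part, so RNA of this gene does not settle the label, and the 2 groups concerned are called the labelled Sting1-/- and the labelled Mcl1Δhep Sting1-/- livers. WT replicates 2 and 3 and the labelled Mcl1Δhep Sting1-/- replicate 1 expressed Y-linked genes, and the other 9 libraries did not. Short structured RNAs, such as small nuclear and small nucleolar RNAs, took 0.172 to 0.369% of counts in WT, 0.283, 2.37 and 1.36% in Mcl1Δhep, and 0.431 to 0.897% in the other libraries. Mitochondrial genes took 0.580 and 0.565% of counts in Mcl1Δhep replicates 2 and 3, and 1.05 to 1.63% in the other 10 libraries. Skeletal muscle genes summed to 1044 CPM in Mcl1Δhep replicate 3 and to at most 5.52 CPM elsewhere.

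In Mcl1Δhep livers, 4 of the 10 genes were higher than in WT and 0 were lower. They were Ifi27l2b (4.09-fold), Ifi27l2a (2.31-fold), Ifitm1 (1.77-fold) and Apobec3 (1.70-fold). Of all tested genes, 10.8% were called higher and 9.43% lower in that comparison. The median log2 fold change was 0.70 over the 10 genes and −0.0049 over all tested genes. For 5 of the 10 genes (Ifi27l2b, Ifitm1, Ifitm2, Apobec3 and Sp110) every Mcl1Δhep liver was above every WT liver, as in 16.2% of the tested genes, and for 0 of the 10 was every Mcl1Δhep liver below every WT liver, as in 17.1%. The number of calls changed with covariates, among the 10 and over all genes. Called in either direction were 20.2% of all tested genes without a covariate. With Y-linked expression as a covariate only Ifi27l2b was called among the 10 genes, beside 10.2% of all tested genes. With the share of short structured RNAs as a covariate 0 of the 10 were called, beside 2.70% of all tested genes. Both covariates are partly confounded with genotype, and their part in the differences was not tested.

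**Figure D1:**
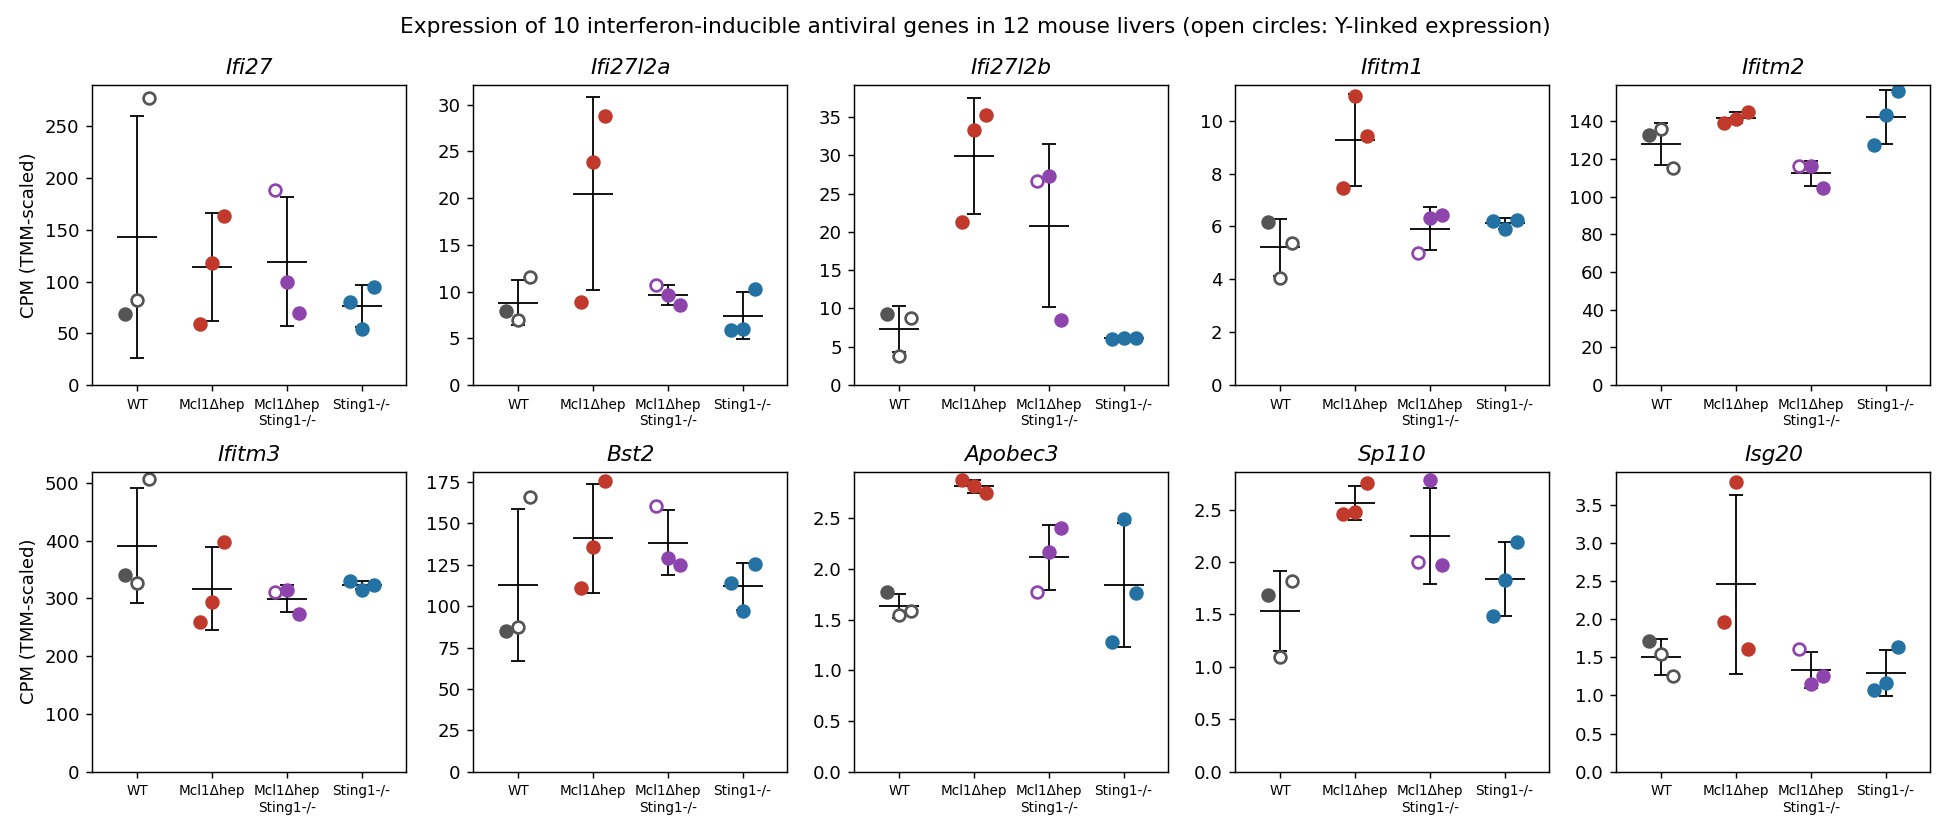
CPM (linear axis from 0) of each of the 10 genes in each of 12 livers by genotype, with the group mean as a horizontal bar and the SD as error bars (n = 3 livers each) and open circles for the 3 libraries with Y-linked expression. The Mcl1Δhep livers sit above all WT livers for Ifi27l2b, Ifitm1, Ifitm2, Apobec3 and Sp110, and WT replicate 3 is far above the other WT livers for Ifi27 (278 CPM), Ifitm3 (506 CPM) and Bst2 (166 CPM).

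The Ifi27 family encodes small hydrophobic proteins of mitochondrial and other internal membranes. Its 3 genes are neighbors on chromosome 12 (GRCm39, GENCODE vM39): Ifi27 at 103392254 to 103407799 on the plus strand, Ifi27l2a at 103399975 to 103409950 on the minus strand, and Ifi27l2b at 103417157 to 103423482 on the minus strand. Exons of Ifi27l2a share 163 bases with exons of Ifi27 on the opposite strand, which is 15.02% of the exonic bases of Ifi27l2a, and whether the counting used strand is not given in the sources used here. The 2 Ifi27l2 genes are close paralogs, and the first 180 coding bases of their main transcripts show how far reads can tell them apart. Bases that differ between both genes, placed side by side without gaps, are in capitals (5′ to 3′, coding strand, GENCODE vM39, GRCm39).
Ifi27l2a: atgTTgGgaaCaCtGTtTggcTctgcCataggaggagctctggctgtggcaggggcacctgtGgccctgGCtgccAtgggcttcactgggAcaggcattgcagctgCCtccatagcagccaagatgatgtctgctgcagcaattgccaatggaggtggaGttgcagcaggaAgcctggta
Ifi27l2b: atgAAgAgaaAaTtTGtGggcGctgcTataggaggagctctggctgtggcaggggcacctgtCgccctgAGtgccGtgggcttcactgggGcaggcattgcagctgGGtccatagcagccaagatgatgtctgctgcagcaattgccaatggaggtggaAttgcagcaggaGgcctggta
Over this stretch 161 of 180 bases were identical. The coding sequence of Ifi27l2b is longer, at 852 bases. Aligned to it with gaps, 89.4% of the 273 coding bases of Ifi27l2a matched, with a longest identical run of 51 bases. With the gaps counted, 28.6% of positions matched. Of the 75-base words of Ifi27l2b transcripts, 0 occurred in a transcript of another gene. The read length is not given in the sources used here, so how well the counts of both genes were kept apart is not known.

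Ifi27l2b showed the largest difference of the 10 genes between Mcl1Δhep and WT. Its level was 9.26, 3.83 and 8.72 CPM in WT livers, 21.3, 33.3 and 35.3 CPM in Mcl1Δhep livers, 26.7, 27.3 and 8.51 CPM in the labelled Mcl1Δhep Sting1-/- livers, and 5.995, 6.08 and 6.18 CPM in the labelled Sting1-/- livers. All Mcl1Δhep livers were above all WT livers, and in the labelled Mcl1Δhep Sting1-/- group 2 livers lay within the Mcl1Δhep range while replicate 3 was level with WT. The log2 fold change of Mcl1Δhep over WT was 2.03 (SE 0.42, adjusted p = 0.00815), and it passed the threshold with each of the 12 libraries left out in turn (1.72 to 2.24). Between the labelled Mcl1Δhep Sting1-/- and Sting1-/- livers, which did not overlap, the log2 fold change was 1.77 (SE 0.41) and missed the threshold (adjusted p = 0.0795). Without the labelled Mcl1Δhep Sting1-/- replicate 3 it was 2.16 and was called, beside 1.62% of all tested genes. The labelled Mcl1Δhep Sting1-/- livers differed from Mcl1Δhep livers by −0.52 (SE 0.40, adjusted p = 0.472).

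Ifi27l2a was higher in Mcl1Δhep livers with less uniform values. It had 7.89, 7 and 11.6 CPM in WT livers, 8.92, 23.8 and 28.8 CPM in Mcl1Δhep livers, 10.7, 9.63 and 8.62 CPM in the labelled Mcl1Δhep Sting1-/- livers, and 5.94, 6.02 and 10.3 CPM in the labelled Sting1-/- livers. Mcl1Δhep replicate 1 lay below WT replicate 3, so the groups overlapped, and the rise rested on Mcl1Δhep replicates 2 and 3. Against WT the log2 fold change was 1.21 (SE 0.37, adjusted p = 0.0393), and it passed the threshold in 4 of 12 fits with 1 library left out, with values from 0.88 to 1.57. With limma voom it was 1.06 and missed the threshold (adjusted p = 0.0789). The Mcl1Δhep replicates 2 and 3 were also the libraries with the largest shares of short structured RNAs (2.37 and 1.36%) and the smallest mitochondrial shares (0.580 and 0.565%). With the share of short structured RNAs as a covariate the log2 fold change was −0.10 (adjusted p = 0.866). Against Mcl1Δhep, the labelled Mcl1Δhep Sting1-/- livers differed by −1.08 (SE 0.37, unadjusted p = 0.0125, adjusted p = 0.158). Without Mcl1Δhep replicate 1, this difference was called, as it was for 20.2% of all tested genes.

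The ratio of Ifi27l2b to Ifi27l2a counts within a library was 1.17, 0.547 and 0.752 in WT, 2.39, 1.40 and 1.23 in Mcl1Δhep, 2.50, 2.83 and 0.987 in the labelled Mcl1Δhep Sting1-/- and 1.01, 1.01 and 0.598 in the labelled Sting1-/- livers. Every Mcl1Δhep liver had a higher ratio than every WT liver. Counted as 1 feature, both genes together were higher in Mcl1Δhep than in WT livers by 1.64 (SE 0.35, adjusted p = 0.00967) on the log2 scale, and the labelled Mcl1Δhep Sting1-/- livers differed from the labelled Sting1-/- livers by 1.17 (adjusted p = 0.177).

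Ifi27 itself varied most among livers of 1 genotype, with a coefficient of variation of 81.9% in WT. It had 68.8, 82.0 and 278 CPM in WT livers, 59.4, 118 and 164 CPM in Mcl1Δhep livers, 189, 99.4 and 69.5 CPM in the labelled Mcl1Δhep Sting1-/- livers, and 80.6, 54.6 and 94.6 CPM in the labelled Sting1-/- livers. WT replicate 3 was the highest of the 12 and all groups overlapped. The log2 fold change of Mcl1Δhep over WT was −0.33 (SE 0.54, adjusted p = 0.692), and without WT replicate 3 it was 0.59 and was not called. The labelled Sting1-/- livers differed from WT by −0.90 (SE 0.54, adjusted p = 0.998), which was 0.024 without WT replicate 3. In that library, 36 canonical interferon-stimulated genes summed to 1483 CPM, against 754 to 1019 CPM in the other 11 libraries. The livers with the next highest Ifi27, the labelled Mcl1Δhep Sting1-/- replicate 1 and Mcl1Δhep replicate 3, had sums of 916 and 790 CPM.

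**Figure D2:**
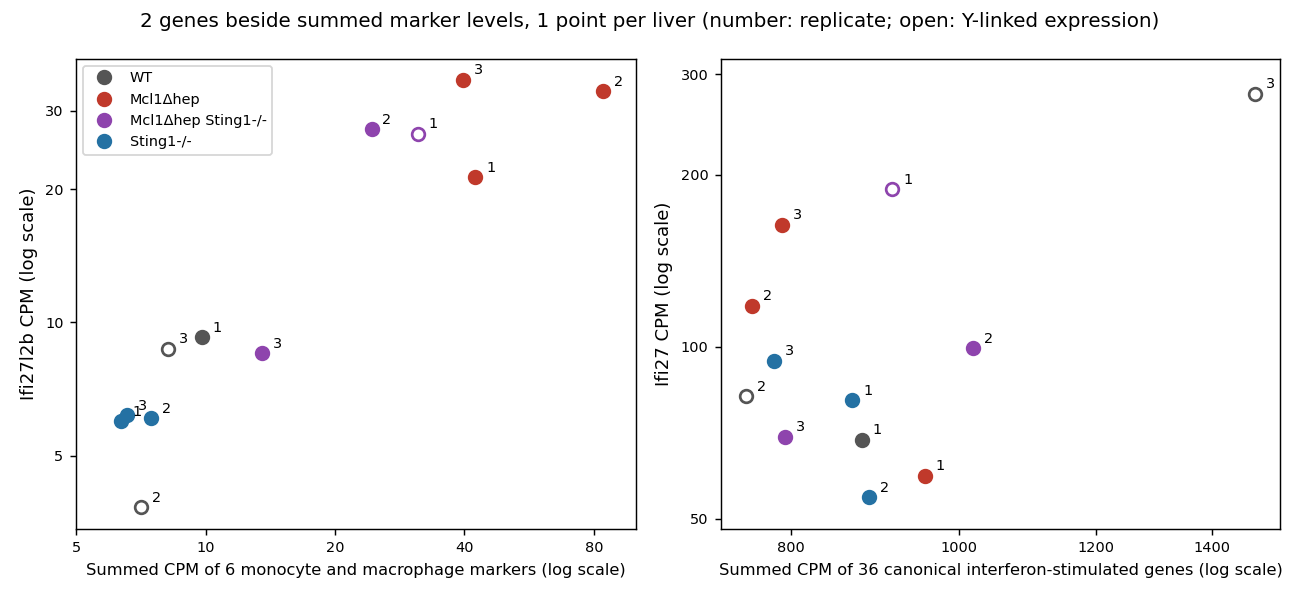
Level of Ifi27l2b against the summed level of 6 monocyte and macrophage markers (left) and of Ifi27 against the summed level of 36 canonical interferon-stimulated genes (right), in CPM on log axes, 1 point per liver with its replicate number and open circles for libraries with Y-linked expression. On the left, the 3 Mcl1Δhep livers and the labelled Mcl1Δhep Sting1-/- replicates 1 and 2 lie above 20 CPM of Ifi27l2b and the other 7 livers below 10 CPM, and on the right WT replicate 3 stands apart at 1483 and 278 CPM.

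The Ifitm genes encode small membrane proteins that hinder the fusion of enveloped viruses with endosomal and plasma membranes. Those measured here lie in 1 cluster on chromosome 7 (GRCm39): Ifitm2 at 140534738 to 140536228 (minus strand), Ifitm1 at 140546316 to 140549743 (plus strand) and Ifitm3 at 140589499 to 140591282 (minus strand). Promoters of 7 of the 10 genes were found in RefSeq (GRCm38.p6, 250 bases before to 50 after each annotated start, 11 promoters), and those of the 3 Ifitm genes are shown because the genes differed in their response. Both strands were searched for the ISRE core GAAANNGAA and for the GAS motif TTCNNNGAA, and matches are in capitals (5′ to 3′, gene strand).
Ifitm1, chr7:140967826-140968125, plus strand: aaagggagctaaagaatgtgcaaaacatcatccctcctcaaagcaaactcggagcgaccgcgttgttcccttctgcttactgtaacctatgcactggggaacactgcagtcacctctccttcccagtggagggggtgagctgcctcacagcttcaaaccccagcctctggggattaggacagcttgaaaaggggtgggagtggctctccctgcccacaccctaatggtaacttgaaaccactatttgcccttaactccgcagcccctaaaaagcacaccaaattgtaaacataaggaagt
Ifitm2, chr7:140955912-140956211, minus strand: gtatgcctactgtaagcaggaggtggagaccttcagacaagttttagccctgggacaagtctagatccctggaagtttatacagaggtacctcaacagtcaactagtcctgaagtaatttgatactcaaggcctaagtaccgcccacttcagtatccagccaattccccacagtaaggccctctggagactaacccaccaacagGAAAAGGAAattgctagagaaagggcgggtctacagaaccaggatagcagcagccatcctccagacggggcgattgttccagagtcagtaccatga
Ifitm3, chr7:141010695-141010994, minus strand: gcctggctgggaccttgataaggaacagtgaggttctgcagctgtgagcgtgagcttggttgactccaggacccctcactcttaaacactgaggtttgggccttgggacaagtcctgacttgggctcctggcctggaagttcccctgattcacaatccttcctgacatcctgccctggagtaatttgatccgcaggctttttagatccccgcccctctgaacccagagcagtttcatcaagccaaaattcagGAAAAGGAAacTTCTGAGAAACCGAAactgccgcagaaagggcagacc
The Ifitm1 window held 0 matches to either motif. Only the start annotated in RefSeq was searched for this gene, so matches at other starts are not known. That of Ifitm2 held 1 ISRE core, which begins 46 bases before the start site. Ifitm3 had 2 ISRE cores, which begin 2 and 19 bases after the start site, and 1 GAS match between and overlapping the second. Of 32851 mouse promoters of the same length, 8.56% held an ISRE core and 8.30% a GAS match.

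Ifitm1 was the member of the cluster that was higher in Mcl1Δhep livers. Its level was 6.17, 4.06 and 5.38 CPM in WT livers, 7.45, 10.9 and 9.42 CPM in Mcl1Δhep livers, 4.98, 6.34 and 6.43 CPM in the labelled Mcl1Δhep Sting1-/- livers, and 6.20, 5.89 and 6.25 CPM in the labelled Sting1-/- livers. All Mcl1Δhep livers were above the other 9. Over WT the log2 fold change was 0.82 (SE 0.19, adjusted p = 0.0144), and it passed the threshold in 10 of 12 fits with 1 library left out, the exceptions being without Mcl1Δhep replicate 2 (0.69) and without WT replicate 2 (0.67). With Y-linked expression as a covariate it was 0.59 (adjusted p = 0.0957). The labelled Mcl1Δhep Sting1-/- livers differed from Mcl1Δhep by −0.64 (SE 0.19, unadjusted p = 0.00612, adjusted p = 0.142) and from the labelled Sting1-/- livers by −0.05 (SE 0.19, adjusted p = 0.961). The difference between the effect of Mcl1 deletion in both backgrounds was −0.87 (SE 0.27, unadjusted p = 0.00792, adjusted p = 0.277). Without Mcl1Δhep replicate 1, the library with the lowest Ifitm1 of its group, both the difference from Mcl1Δhep livers and this interaction were called. So were 20.2% of all tested genes for that difference and 10.2% for the interaction, against 0% each with all 12 libraries.

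For Ifitm2 no comparison passed the threshold. It had 133, 136 and 115 CPM in WT livers, 139, 141 and 145 CPM in Mcl1Δhep livers, 127, 143 and 156 CPM in the labelled Sting1-/- livers, and 116, 116.5 and 105 CPM in the labelled Mcl1Δhep Sting1-/- livers. The labelled Mcl1Δhep Sting1-/- livers were below all Mcl1Δhep and all labelled Sting1-/- livers and overlapped WT. Their log2 fold change was −0.34 over Mcl1Δhep (SE 0.13, unadjusted p = 0.0218, adjusted p = 0.181) and −0.34 over the labelled Sting1-/- livers (SE 0.13, unadjusted p = 0.0206, adjusted p = 0.314). Mcl1Δhep livers differed from WT by 0.15 (SE 0.13, adjusted p = 0.421). The test of the interaction gave −0.49 (SE 0.18, unadjusted p = 0.019, adjusted p = 0.298). Ifitm2 shares 268 exonic bases with Gm45717 on the same strand, which had 61.8 to 94.0 CPM, so reads of this stretch could belong to either.

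Ifitm3 had the highest level of the 10 genes. It had 340.4, 327 and 506 CPM in WT livers, 259, 294 and 398 CPM in Mcl1Δhep livers, 312, 314 and 273 CPM in the labelled Mcl1Δhep Sting1-/- livers, and 329, 315 and 323 CPM in the labelled Sting1-/- livers. WT replicate 3 was the highest, and Mcl1Δhep and WT livers overlapped. Between Mcl1Δhep and WT the log2 fold change was −0.30 (SE 0.20, adjusted p = 0.29), and the other comparisons of 2 groups gave −0.28 to −0.08 with adjusted p from 0.838 to 0.998. Of the 75-base words of Ifitm3 transcripts, 41.6% also occurred in other genes, led by Gm57251, Gm64847 and Gm7676. Summed to 1 feature, Ifitm1, Ifitm2 and Ifitm3 differed by −0.16 between Mcl1Δhep and WT livers (SE 0.16, adjusted p = 0.49).

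Bst2 encodes tetherin, a membrane protein that holds budding enveloped viruses to the cell surface. It lies on chromosome 8 at 71986895 to 71990114 (GRCm39, minus strand), and its promoter is shown because it held the densest group of matches (RefSeq, GRCm38.p6, 5′ to 3′ on the gene strand, motif matches in capitals).
Bst2, chr8:71537423-71537722, minus strand: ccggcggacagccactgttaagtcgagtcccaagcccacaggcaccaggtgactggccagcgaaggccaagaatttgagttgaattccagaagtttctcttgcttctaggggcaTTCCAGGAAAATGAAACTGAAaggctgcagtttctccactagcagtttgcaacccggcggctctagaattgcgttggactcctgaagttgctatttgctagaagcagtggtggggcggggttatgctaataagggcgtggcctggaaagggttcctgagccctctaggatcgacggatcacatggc
The 2 ISRE cores begin 130 and 124 bases before the start site and overlap each other, and the GAS match begins 136 bases before it and overlaps the first of them. Bst2 had 85.2, 87.6 and 166 CPM in WT livers, 111, 136 and 176 CPM in Mcl1Δhep livers, 161, 129 and 125 CPM in the labelled Mcl1Δhep Sting1-/- livers, and 114, 97.1 and 125 CPM in the labelled Sting1-/- livers. The groups overlapped through WT replicate 3. For Mcl1Δhep over WT the log2 fold change was 0.32 (SE 0.26, adjusted p = 0.392), and without WT replicate 3 it was 0.70 and was not called. In the other comparisons of 2 groups it ranged from −0.03 to 0.30 with adjusted p of 0.761 or more.

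**Figure D3:**
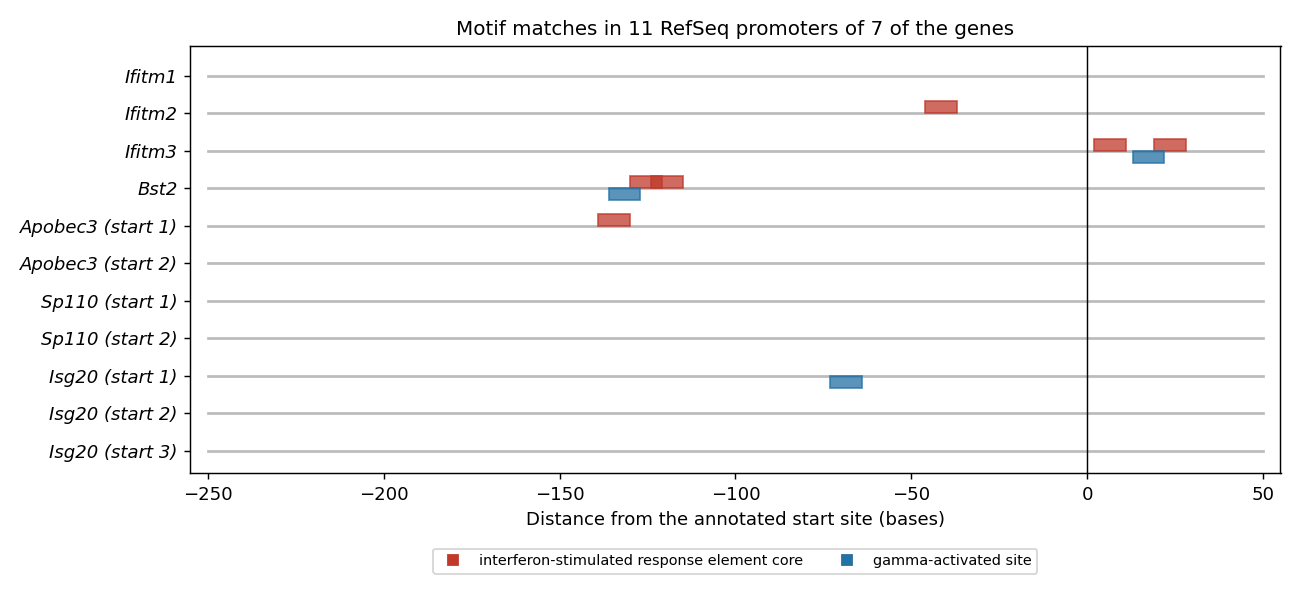
Matches to the ISRE core (red, upper) and the GAS motif (blue, lower) on both strands in 11 RefSeq promoters of 7 of the genes, by distance in bases from the annotated start site (vertical line at 0). Matches to the ISRE core lie in promoters of Ifitm2, Ifitm3, Bst2 and Apobec3, matches to the GAS motif in those of Ifitm3, Bst2 and Isg20, and the windows of Ifitm1 and Sp110 held neither.

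Apobec3 encodes a cytidine deaminase that mutates retroviral DNA. It lies on chromosome 15 at 79775860 to 79800206 (GRCm39, plus strand), and 1 of its 2 promoter windows held an ISRE core, which begins 139 bases before the start site. At 44 to 139 counts per library it was among the least abundant of the 10 genes. It had 1.77, 1.54 and 1.59 CPM in WT livers, 2.88, 2.82 and 2.75 CPM in Mcl1Δhep livers, 1.77, 2.17 and 2.41 CPM in the labelled Mcl1Δhep Sting1-/- livers, and 1.28, 2.49 and 1.76 CPM in the labelled Sting1-/- livers. All Mcl1Δhep livers were above the other 9, and those of the labelled Mcl1Δhep Sting1-/- group lay between WT and Mcl1Δhep. The log2 fold change of Mcl1Δhep over WT was 0.77 (SE 0.24, adjusted p = 0.0445). It stayed between 0.72 and 0.82 with 1 library left out but passed the threshold in 3 of 12 such fits. With no filter on low counts it was 0.76 and missed the threshold (adjusted p = 0.0755). A log2 fold change of −0.40 (SE 0.24, adjusted p = 0.357) separated the labelled Mcl1Δhep Sting1-/- from the Mcl1Δhep livers, which did not overlap.

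Sp110 encodes a nuclear body protein linked to the control of intracellular bacteria. It lies on chromosome 1 at 85498456 to 85526604 (GRCm39, minus strand). Its level was 1.69, 1.10 and 1.82 CPM in WT livers, 2.46, 2.48 and 2.75 CPM in Mcl1Δhep livers, 2.01, 2.78 and 1.97 CPM in the labelled Mcl1Δhep Sting1-/- livers, and 1.48, 1.83 and 2.20 CPM in the labelled Sting1-/- livers, from 37 to 119 counts per library. Mcl1Δhep livers were above all WT livers, and the log2 fold change of 0.72 (SE 0.25, adjusted p = 0.0589) missed the threshold. DESeq2 (adjusted p = 0.0343) and edgeR with upper quartile factors (adjusted p = 0.0374) called it. Of the 75-base words of its transcripts, 24.5% also occurred in other genes, led by Sp110-ps1, so its counts depend on how reads with several positions were treated.

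Isg20 encodes an exonuclease that degrades single-stranded RNA. It lies on chromosome 7 at 78562598 to 78570153 (GRCm39, plus strand), and 1 of its 3 promoter windows held a GAS match. It had 1.72, 1.54 and 1.26 CPM in WT livers, 1.97, 3.79 and 1.61 CPM in Mcl1Δhep livers, 1.60, 1.15 and 1.26 CPM in the labelled Mcl1Δhep Sting1-/- livers, and 1.08, 1.17 and 1.64 CPM in the labelled Sting1-/- livers. Mcl1Δhep replicate 2 was the highest of the 12, and the log2 fold change of Mcl1Δhep over WT was 0.68 (SE 0.32, adjusted p = 0.142) with it and 0.24 (adjusted p = 0.616) without it. The labelled Mcl1Δhep Sting1-/- livers were all below the Mcl1Δhep livers, with a log2 fold change of −0.85 (SE 0.32, unadjusted p = 0.0207, adjusted p = 0.18).

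In the comparison of the labelled Mcl1Δhep Sting1-/- with the Mcl1Δhep livers, which asks how loss of STING alters the Mcl1Δhep liver, 0 of the 10 genes were called, as were 0% of all tested genes. An unadjusted p under 0.05 was reached by 4 of the 10 (Ifi27l2a, Ifitm1, Ifitm2 and Isg20) and by 20.6% of all tested genes. DESeq2 called 671 of 14146 genes, among them 0 of the 10. The log2 fold change was negative for 9 of the 10 genes, with a median of −0.37 against −0.0021 over all tested genes. For Ifitm1, Ifitm2, Apobec3 and Isg20 every labelled Mcl1Δhep Sting1-/- liver was below every Mcl1Δhep liver, as in 9.28% of the tested genes, and for 0 of the 10 was every one above (8.97% of all tested genes). Mcl1Δhep replicate 1 bore on this comparison, since without it 2 of the 10 genes (Ifi27l2a and Ifitm1) and 20.2% of all tested genes were called. This comparison shares the Mcl1Δhep libraries with that against WT.

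Between the labelled Mcl1Δhep Sting1-/- and Sting1-/- livers, 0 of the 10 genes were called, while 0.677% of all tested genes were called higher and 0.126% lower. An unadjusted p under 0.05 was reached by Ifi27l2b and Ifitm2, and by 11.3% of all tested genes. Ifi27l2b was without overlap higher (11.5% of all tested genes), and Ifitm2 and Ifitm3 were without overlap lower (10.8%). Ifi27l2b was called by DESeq2, which called 3.16% of all its tested genes, and when no filter on low counts was applied, where 0.661% of all genes were called. The labelled Sting1-/- livers did not differ detectably from WT livers in any of the 10 genes: 0 were called against 0% of all tested genes. An unadjusted p under 0.05 was reached by 0 against 5.45%, and DESeq2 called 0 against 0.326% of all its tested genes. Without overlap higher or lower were 0, against 7.06% and 5.46% of all tested genes. The interaction, the difference between the effect of Mcl1 deletion in the 2 backgrounds, was called for 0 of the 10 genes and 0% of all tested genes. By unadjusted p, Ifitm1 and Ifitm2 were under 0.05, as were 14.4% of all tested genes. DESeq2 called 0 of the 10 and 1.14% of all its tested genes.

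**Figure D4:**
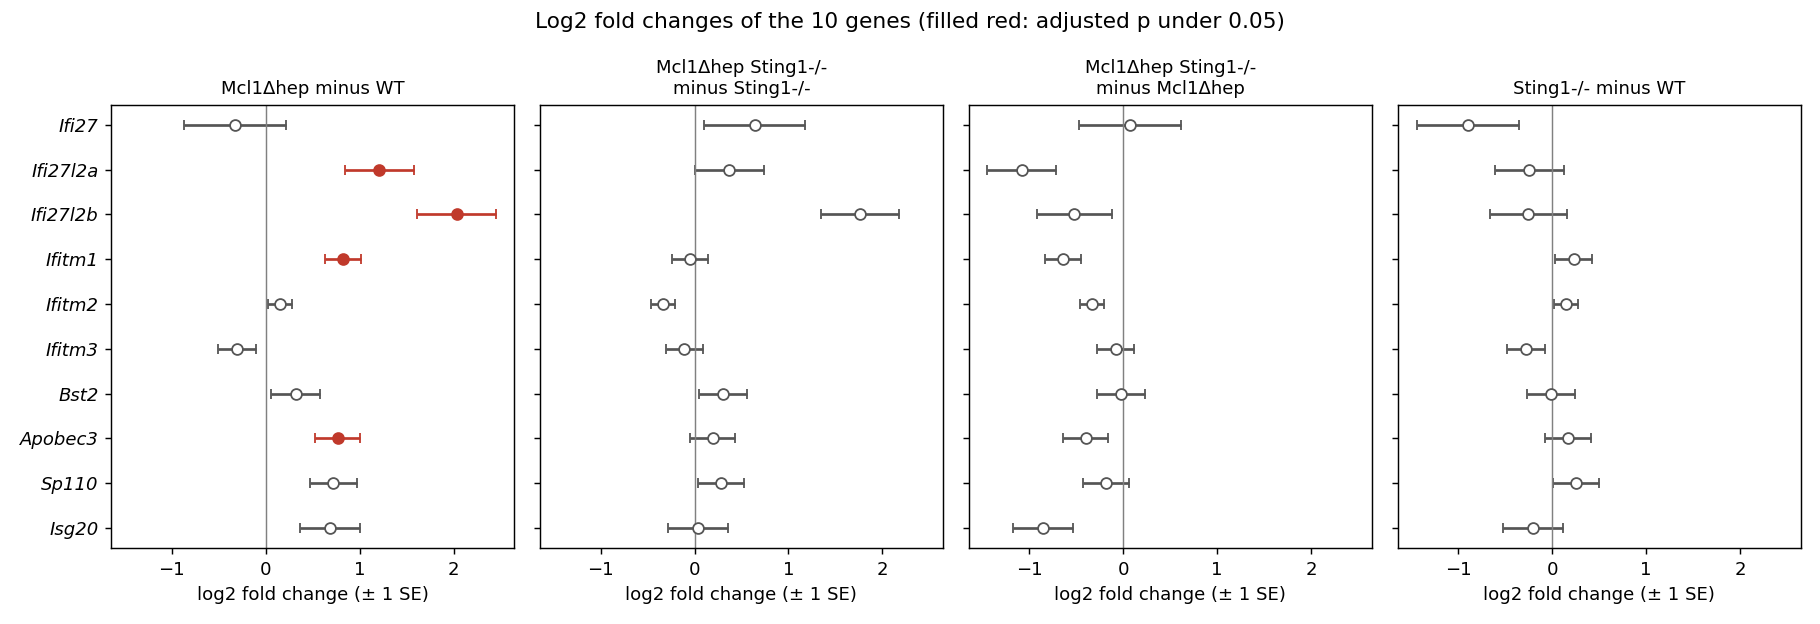
Log2 fold changes (points) ± 1 SE of the 10 genes in 4 comparisons of 2 genotypes (n = 3 livers each), with filled red points for an adjusted p under 0.05. Ifi27l2a, Ifi27l2b, Ifitm1 and Apobec3 are filled for Mcl1Δhep minus WT, 0 genes are filled in the other comparisons, and Ifi27l2b has the largest value in both comparisons of Mcl1-deleted with Mcl1-intact livers (2.03 and 1.77).

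Compared between genes per exonic length (TPM, mean ± SD of 3 WT livers), the order of levels in WT liver was Ifitm3 (1093 ± 253), Ifitm2 (461 ± 52.9), Bst2 (332 ± 125), Ifi27 (113 ± 89.8), Ifi27l2a (29.1 ± 7.45), Ifi27l2b (24.1 ± 10.5), Ifitm1 (15.04 ± 3.68), Isg20 (2.12 ± 0.417), Sp110 (0.530 ± 0.140) and Apobec3 (0.517 ± 0.0633). The mean ± SD ranges overlapped for the neighbors Ifitm2 and Bst2, Ifi27 and Ifi27l2a, Ifi27l2a and Ifi27l2b, Ifi27l2b and Ifitm1, and Sp110 and Apobec3. In Mcl1Δhep livers, Ifi27l2b (92.3 ± 11.2 TPM) reached the level of Ifi27 (84.4 ± 31.1 TPM), and Ifi27l2a stood at 62.0 ± 25.7 TPM. This depends on the length used, which covers all annotated exons: 1093 bases for Ifi27l2b and 4461 for Ifi27. Without division by length, their means in Mcl1Δhep livers were 29.9 and 114 CPM. The genes that were higher in Mcl1Δhep livers were thus of low or middle level, and Ifitm3, Ifitm2 and Bst2, those of highest level, were not called.

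Other genes of the interferon response were described in Mcl1Δhep against WT livers from lists chosen with earlier results of these data known. Among all tested genes, 10.8% were called higher and 9.43% lower in this comparison. Of 36 canonical interferon-stimulated genes, 2 were higher in Mcl1Δhep than in WT livers, Ifit1bl1 (1.40, adjusted p = 0.0396) and Phf11d (0.91, adjusted p = 0.0474), and 2 were lower, Herc6 (−0.68, adjusted p = 0.0455) and Dtx3l (−0.64, adjusted p = 0.019), as log2 fold changes. The list's median was −0.05. WT replicate 3 bears on these values. The 36 genes summed to 1483 CPM in it, against 879 and 754 CPM in WT replicates 1 and 2. In Mcl1Δhep livers they summed to 760 to 956 CPM. What the list shows without WT replicate 3 was not tested. Of 27 further restriction factors tested, Slfn2, a regulator of immune cell quiescence, was higher (1.62, adjusted p = 0.00285) and Marchf8, a ubiquitin ligase that lowers membrane proteins, was lower (−0.67, adjusted p = 0.0347), with a median of −0.12. Of 21 genes of interferon signalling, 4 were higher, namely Irf8 (1.15, adjusted p = 0.00116), a myeloid transcription factor, the interferon gamma receptor chains Ifngr1 (0.71, adjusted p = 0.0167) and Ifngr2 (0.85, adjusted p = 0.00468), and Il10rb (0.70, adjusted p = 0.00762). The 3 that were lower were Ifnar2 (−0.50, adjusted p = 0.0277), a chain of the type I interferon receptor, and the transcription factors Irf2 (−0.57, adjusted p = 0.0324) and Irf3 (−0.34, adjusted p = 0.0431). Of 7 tested relatives of the 10 genes, such as Ifitm6, Sp100 and Apobec1, 0 were called, with log2 fold changes of −0.14 to 0.78. In the other 4 comparisons, 0 genes of these 4 lists were called. The type I interferon gene Ifnb1 had 0 counts in all 12 libraries, which allows, at 3 counts per library and for counting error only, up to 0.0663 to 0.104 CPM.

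Markers of some immune cells were also higher in Mcl1Δhep than in WT livers. Of 6 monocyte and macrophage markers, 5 were higher in Mcl1Δhep than in WT livers, led by Gpnmb (5.10, adjusted p = 0.00133) and Trem2 (3.57, adjusted p = 0.00138), which mark lipid-associated macrophages, and the 6 together summed to 39.7 to 84.0 CPM in Mcl1Δhep, 7.09 to 9.79 in WT, 13.5 to 31.1 in the labelled Mcl1Δhep Sting1-/- and 6.37 to 7.46 in the labelled Sting1-/- livers. Gpnmb and Trem2 were also the 2 of these 6 that were higher in the labelled Mcl1Δhep Sting1-/- than in the labelled Sting1-/- livers (4.98 and 3.45, adjusted p = 0.0206 each). The labelled Mcl1Δhep Sting1-/- replicate 3, with the lowest Ifi27l2b of its group, had 13.5 CPM of these markers, the lowest sum of its group, whereas Mcl1Δhep replicate 3, with the highest Ifi27l2b and Ifi27l2a of its group, also had the lowest sums of its group for these markers (39.7 CPM) and for neutrophil markers (9.87 CPM). All 5 tested neutrophil markers were higher in Mcl1Δhep than in WT livers, and the list of 6 summed to 9.87 to 22.8 CPM against 3.03 to 4.66 CPM, with the defining marker Ly6g at 0 in all WT libraries and at most 0.0949 CPM in Mcl1Δhep. Mcl1Δhep replicate 2, the highest for Ifitm1 and Isg20, also had the highest sums of both lists. Of 5 Kupffer cell markers, Cd5l (0.67, adjusted p = 0.0273) and Adgre1 (0.61, adjusted p = 0.048) were higher. Clec4f (0.43), Vsig4 (0.14) and Timd4 (−0.29) were not called. Of 5 tested T and NK cell markers, Cd8a (1.70, adjusted p = 0.0174) and Klrb1c (1.59, adjusted p = 0.0131) were higher. Nkg7 (0.49), Cd3g (0.30) and Cd4 (−0.74) were not called. Of the hepatocyte (6), endothelial (6), cholangiocyte (4), B and plasma cell (6) and plasmacytoid dendritic cell (3) markers tested, 0 were called, and of 4 stellate cell markers 1 was, Des (2.51, adjusted p = 0.0251), which muscle also expresses. The part of these cells in the differences of the 10 genes was not tested.

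For each of the 10 genes, the 3 tested genes with the most similar log2 CPM over the 12 livers were found by Pearson's r. The points share the libraries, their depth and the genotype differences, so r is a description. Ifi27l2b was most like Hmgb2 (r = 0.979), a chromatin protein of dividing cells, Ube2t (0.961) and Clec4b1 (0.959), a myeloid lectin. Ifi27l2a was most like Arpc3 (0.958), Mrpl40 (0.952) and Gpx4 (0.95), and Ifitm1 like Panx1 (0.958), Npc2 (0.947) and Ralb (0.945). For Apobec3 these were Gm4131 (0.919), Mefv (0.909) and Cd44 (0.903), and for Sp110 Neurl3 (0.966), Sash3 (0.956) and Rab19 (0.93). Ifi27 and Bst2 both had Ube2l6, the conjugating enzyme of the interferon-induced modifier ISG15, in first place (0.921 and 0.903), followed by Irf7 (0.845) and Ramac (0.843) for Ifi27 and by Oas1a (0.872) and Gm28496 (0.864) for Bst2. Ifitm3 was most like Apol9b (0.9), Nucb2 (0.894) and Gm49668 (0.873), Ifitm2 like the overlapping Gm45717 (0.956), Wfdc2 (0.932) and Tm4sf1 (0.885), and Isg20 like Pagr1b (0.904), Glt8d1 (0.9) and Mrps31 (0.9). With the mean of each genotype removed, r for the first gene named for Ifi27l2b, Ifi27 and Bst2 was 0.936, 0.939 and 0.958. Over all the genes named it ranged from 0.708 (Cd44 for Apobec3) to 0.97 (Apol9b for Ifitm3).

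Among the 10 genes themselves, r over the 12 livers was highest for Ifi27 with Bst2 (0.829), Ifi27l2b with Sp110 (0.824), Ifi27l2a with Ifi27l2b (0.738), Ifitm1 with Sp110 (0.734) and Ifitm1 with Ifi27l2a (0.733). Ifi27 with Ifitm3 reached 0.721, and Ifi27 with Ifitm1 0.017. WT replicate 3, with the highest Ifi27 and Ifitm3 of the 12, lay within the range of the other WT livers for Ifitm1 and Apobec3.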

How the data were processed

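Total RNA of 12 mouse livers, 3 for each genotype, was sequenced on an Illumina NovaSeq. For each liver the authors deposited raw, unnormalized read counts, keyed by Ensembl gene. The submitters' processing notes name STAR, featureCounts and GRCm39, and their versions, the annotation, the use of strand and the treatment of reads with several positions are not given in the sources used here. Genotypes came from the labels, and whether replicates shared a litter or batch is not stated, so p-values measure the spread between these livers only.

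From the counts, CPM with TMM factors and differences were computed with edgeR 4.0.16 in R 4.3.3 (filterByExpr by genotype, prior count of 2, glmQLFit and glmQLFTest on all 12 libraries without covariates, Benjamini-Hochberg adjustment over 15070 genes, threshold of 0.05). The SE is the log2 fold change divided by the square root of F. TPM used exon lengths of GENCODE vM39. Alternatives were RLE and upper quartile factors, no filter, DESeq2 1.42.0, limma voom 3.58.1, covariates, a replicate block, only the groups compared, summed paralogs and leaving out each library. The correlation of deviations between same-numbered libraries ranged from −0.541 to 0.251, and 3 libraries per genotype are too few to exclude a pairing. No pair of libraries within a genotype agreed within sampling noise (chi-square over degrees of freedom from 40.1 to 290.3). On data simulated for the comparison of Mcl1Δhep with WT (log2 change of 2), 14864 genes were tested and 193 were changed, of which the quasi-likelihood test found 184 (10 false calls), voom 185 (8) and DESeq2 182 (23). This gives no rate for smaller changes, such as those of Ifi27l2a (1.21), Ifitm1 (0.82) and Apobec3 (0.77), or for data with more genes changed.

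The 10 genes and the lists were chosen with earlier results of these data known, and the study itself names Ifi27l2a and Ifi27l2b for these livers. All 10 genes are given in each comparison. From each list up to 4 called genes per direction with the lowest adjusted p are named, and for each of the 10 the 3 genes with the highest r. Mcl1 and Sting1 were checked as the targeted genes. Sequences were read from the reference with Python 3.11.15 and Biopython 1.88. Short structured RNAs are the snRNA, snoRNA, scaRNA, miscellaneous RNA, rRNA and ribozyme genes.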

Additional observations from a re-analysis of the deposited data

How the results depend on the processing

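Ifi27l2b was called higher in Mcl1Δhep than in WT livers under each alternative except the covariate for short structured RNAs and the fit without the 3 libraries with Y-linked expression, which was chosen after seeing the data and leaves 1 WT library, assumed to vary like the other groups. In that comparison 4 of the 10 genes and 20.2% of all tested genes were called, against 1 (10.2% of all) with Y-linked expression as a covariate, 0 (2.70%) with the share of short structured RNAs as a covariate, 1 (8.15%) with only the groups compared, 0 (0.0247%) without the 3 libraries with Y-linked expression, and 1 to 4 (7.99 to 34.1%) with 1 library left out. Voom (without Ifi27l2a) and no filter (without Apobec3) each called 3, beside 19.7 and 10.7% of all genes, and upper quartile factors and DESeq2 each called 5, with Sp110 added, beside 20.1 and 25.9%. The libraries that lowered the count most were Mcl1Δhep replicate 2 and WT replicate 2 (1 each), and Mcl1Δhep replicate 3, the labelled Mcl1Δhep Sting1-/- replicate 2, WT replicate 1 and WT replicate 3 (2 each). With 1 library left out, 0 to 2 genes were called between the labelled Mcl1Δhep Sting1-/- and Mcl1Δhep livers, beside 0 to 20.2% of all tested genes. Between the labelled Mcl1Δhep Sting1-/- and Sting1-/- livers 0 to 1 were called, beside 0.0065 to 1.62%. There no filter and DESeq2 each called 1, beside 0.661 and 3.16%. For the interaction 0 to 1 were called, beside 0 to 10.2%. With the replicate block, 3 genes (Apobec3 was lost, at 0.76) and 17.2% of all tested genes were called in Mcl1Δhep against WT. In each other comparison 0 of the 10 were called, beside 0.856% of all tested genes in the labelled Mcl1Δhep Sting1-/- against Sting1-/- livers and 0% in the rest. With this block Bst2 turned positive in the labelled Mcl1Δhep Sting1-/- against Mcl1Δhep (0.011) and in the labelled Sting1-/- against WT livers (0.032). The other changes of direction were of log2 fold changes that were not called, except for Ifi27l2a and Ifitm1 in Mcl1Δhep against WT. With Y-linked expression as a covariate Ifi27 was 0.65 in Mcl1Δhep against WT (0.71 without the 3 libraries), −0.47 in the labelled Mcl1Δhep Sting1-/- against Mcl1Δhep, 0.079 in the labelled Sting1-/- against WT and −0.54 in the interaction. Under that covariate Ifitm1, Bst2 and Apobec3 were −0.005, 0.32 and −0.001 in the labelled Sting1-/- against WT, and Ifitm1 was 0.066 in the labelled Mcl1Δhep Sting1-/- against Sting1-/- livers. With the share of short structured RNAs as a covariate, Ifi27l2a was −0.099 and Bst2 −0.19 in Mcl1Δhep against WT, Ifitm3 was 0.095 and Bst2 0.24 in the labelled Mcl1Δhep Sting1-/- against Mcl1Δhep, Ifitm1 was 0.015 against the labelled Sting1-/- livers, and the interaction was 0.75 for Ifi27l2a, 0.40 for Ifi27l2b and 0.60 for Bst2. The summed Ifitm genes gave −0.16 in Mcl1Δhep and −0.16 in the labelled Sting1-/- against WT and −0.009 in the interaction. Upper quartile factors, which moved the median of all genes by 0.14 in Mcl1Δhep against WT, gave Ifi27 −0.036 in the labelled Mcl1Δhep Sting1-/- against Mcl1Δhep, and voom gave Bst2 0.049 in the labelled Sting1-/- against WT. The causes were not tested.

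With 1 library left out, the log2 fold change ranged from −0.69 to 0.59 for Ifi27 in Mcl1Δhep against WT. In the labelled Mcl1Δhep Sting1-/- against Mcl1Δhep it ranged from −0.42 to 0.43 for Ifi27, −0.20 to 0.12 for Ifitm3 and −0.17 to 0.17 for Bst2. In the labelled Sting1-/- against WT these ranges were −1.23 to 0.024 for Ifi27, −0.18 to 0.38 for Bst2 and −0.095 to 0.37 for Apobec3. In the labelled Mcl1Δhep Sting1-/- against Sting1-/- they were −0.098 to 0.061 for Ifitm1, −0.005 to 0.46 for Apobec3 and −0.11 to 0.24 for Isg20, and in the interaction −0.51 to 0.12 for Ifi27l2b, −0.029 to 0.39 for Ifitm3 and −0.40 to 0.17 for Bst2. Apobec3, Sp110 and Isg20 rested on 37 to 139 counts per library, which limits what could be detected.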
